A study of Mus musculus with 5 samples.

Results

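Macrophages of the uninjured mouse kidney were described from the barcodes that carry the macrophage label in the annotation the authors deposited. The label stood on 120 of the 11395 barcodes of the healthy libraries, out of 17542 barcodes in the whole series. DroNc-seq nuclei held 54 of these macrophages, sNucDrop-seq nuclei 43, Drop-seq whole cells 20 and 10x Chromium nuclei 3. The healthy libraries all came from C57BL/6 kidney, with 1 library per droplet platform. Whole cells were released by warm enzyme digestion and sorted on light scatter, whereas nuclei were freed by lysis and homogenization. A further library of 10x nuclei came from kidney on day 14 of UUO (ligation of the ureter on 1 side, which scars the kidney), and its 130 macrophages of 6147 barcodes serve only for values set beside the healthy ones. The labels name neither the age nor the sex nor the number of animals.

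Each group was 1 library, so no difference below has a replicate check and no p-value is given. Platform and animal cannot be told apart. The label itself came from clustering these barcodes, so the contrast of macrophages with other labels describes the label and tests nothing. Levels are unique molecular identifiers (UMIs, counts of single captured RNA molecules) summed over the barcodes of a label and scaled to CPM, the count divided by the total of the sum and multiplied to a common size. Differences are log2 ratios of macrophage CPM over the CPM of the other labels of the same library, and intervals are exact 95% intervals that cover counting error only.

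Macrophages are long-lived phagocytes that sit between kidney tubules and capillaries, where they take up debris and immune complexes and present antigen. Their growth and survival depend on the receptor CSF1R, and their gene programme on the ETS factor PU.1, which the gene Spi1 encodes. Kidney macrophages arise partly from embryonic precursors and partly from blood monocytes that carry the chemokine receptor CCR2, and in the mouse both kinds can show the surface protein F4/80, which the gene Adgre1 encodes. A nucleus holds mostly unspliced and recently made RNA, while a whole cell also holds the RNA of the cytoplasm.

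The marker genes of the label were each highest in macrophages among 13 labels in DroNc-seq and sNucDrop-seq nuclei. Lyz2, which encodes a lysozyme of myeloid cells, had 16 UMIs in DroNc-seq macrophages (169 CPM, against 3.29 CPM in other labels), 2 UMIs in sNucDrop-seq macrophages (31.9 CPM, against 2.41 CPM) and 25 UMIs in Drop-seq macrophages (674 CPM, against 1.90 CPM). Cd74, the invariant chain that chaperones MHC class II, stood at 74.1 CPM in DroNc-seq macrophages against 6.07 CPM in other labels, at 144 CPM against 1.97 CPM in sNucDrop-seq, and at 863 CPM against 19.2 CPM in Drop-seq. Mrc1, the mannose receptor, had 24 UMIs in DroNc-seq macrophages (254 CPM, against 4.33 CPM), 4 UMIs in sNucDrop-seq macrophages and 0 in Drop-seq macrophages. The 3 markers therefore lay above the other labels wherever they were detected, but on few molecules in sNucDrop-seq.

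Macrophages were 1.95% of DroNc-seq barcodes (interval 1.47 to 2.54%), 1.43% of sNucDrop-seq barcodes (1.04 to 1.92%), 0.566% of Drop-seq barcodes (0.346 to 0.873%) and 0.144% of 10x barcodes (0.0297 to 0.420%). Proximal tubule barcodes filled most of the Drop-seq library, and outside the proximal tubule labels the macrophage share was 4.64% in DroNc-seq, 3.61% in sNucDrop-seq, 3.93% in Drop-seq and 0.218% in 10x nuclei. The shares of the first 3 libraries lay closer together on this denominator, and the 10x share stayed the lowest. The scatter sort acted on the Drop-seq library alone, and its part in these shares was not tested.

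The macrophage sums held 94469 UMIs in DroNc-seq, 62699 in sNucDrop-seq, 37077 in Drop-seq and 3254 in 10x nuclei. A macrophage had a median of 1233 UMIs in DroNc-seq against 1605 in other labels, 1229 against 1143 in sNucDrop-seq, and 1665 against 1629 in Drop-seq. When barcodes were thinned to 500 UMIs, a macrophage showed a median of 389 genes against 365 in DroNc-seq, 382 against 377.5 in sNucDrop-seq, and 289.5 against 318.5 in Drop-seq. Macrophages were thus neither much deeper nor much richer in genes than the other labels. Mitochondrial genes took 33.2% of macrophage UMIs in Drop-seq against 24.2% in other labels, and under 1% in both nuclear libraries. With 3254 UMIs the 10x macrophages were too few for counts of genes, and only list sums are given for them.

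The genes that set macrophages apart most clearly in nuclei were ranked by the lower bound of their interval, the smaller of the values in both libraries, among genes called higher in both. The first 12 were Myo1f, Ctss, Fam105a, Dock2, Ptprc, Fyb, Ikzf1, Mctp1, Cd300a, Adgre1, Prkcb and Runx1. The PU.1 family of factors is known for binding myeloid promoters at the letters GAGGAA, and promoters of the first 4 genes whose window holds these letters are shown. The window of Fam105a, ranked between Ctss and Dock2, holds 0 matches and is not shown. The sequences are 300-base windows from RefSeq on build GRCm38.p6, running from 250 bases before to 50 bases after the annotated start and printed in the direction of transcription, with capitals marking GAGGAA or its reverse complement TTCCTC. Myo1f lies on the plus strand at chr17:33555457-33555756, Ctss on the plus strand at chr3:95526536-95526835, Dock2 on the minus strand at chr11:34783856-34784155 and Ptprc on the minus strand at chr1:138175256-138175555.
Myo1f: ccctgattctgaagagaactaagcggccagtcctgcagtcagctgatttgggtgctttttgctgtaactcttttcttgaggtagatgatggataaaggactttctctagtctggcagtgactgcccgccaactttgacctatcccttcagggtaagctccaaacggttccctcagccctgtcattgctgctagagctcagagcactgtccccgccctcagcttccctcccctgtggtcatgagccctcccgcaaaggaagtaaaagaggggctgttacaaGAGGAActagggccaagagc
Ctss: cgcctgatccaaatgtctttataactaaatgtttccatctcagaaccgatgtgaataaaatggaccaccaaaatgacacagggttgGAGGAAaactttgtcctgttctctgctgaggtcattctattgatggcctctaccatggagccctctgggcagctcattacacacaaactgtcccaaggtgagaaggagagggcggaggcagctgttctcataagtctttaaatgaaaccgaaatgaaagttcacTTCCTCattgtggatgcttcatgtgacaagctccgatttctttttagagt
Dock2: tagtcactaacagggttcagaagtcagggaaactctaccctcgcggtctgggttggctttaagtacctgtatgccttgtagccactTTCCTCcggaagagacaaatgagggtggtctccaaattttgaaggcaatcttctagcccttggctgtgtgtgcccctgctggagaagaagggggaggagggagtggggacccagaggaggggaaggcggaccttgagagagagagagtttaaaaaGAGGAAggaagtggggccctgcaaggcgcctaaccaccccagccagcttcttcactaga
Ptprc: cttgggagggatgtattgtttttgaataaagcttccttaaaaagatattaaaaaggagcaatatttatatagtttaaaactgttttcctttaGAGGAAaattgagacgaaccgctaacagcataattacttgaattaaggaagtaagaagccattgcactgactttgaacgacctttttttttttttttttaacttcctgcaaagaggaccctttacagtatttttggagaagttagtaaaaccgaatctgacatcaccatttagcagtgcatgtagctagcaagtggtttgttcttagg

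The letters occurred 1 time in the Myo1f window, 2 times in the Ctss window, 2 times in the Dock2 window and 1 time in the first Ptprc window. Of the 12 leading genes, 11 had a window in the RefSeq table (Fam105a under the name Otulinl), and 8 of these 11 held the letters on either strand. Over all RefSeq genes with a window the share was 31.3% of 27025 genes, and over single windows 28.3% of 32851. A match describes the letters only and is not a bound site.

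A gene counted as measured when it had at least 20 UMIs over both sums, and as higher when its macrophage CPM was at least 4-fold above the other labels on at least 5 macrophage UMIs. By this rule 570 of 13154 measured genes were higher in DroNc-seq macrophages (4.33%), 223 of 12738 in sNucDrop-seq macrophages (1.75%) and 52 of 11591 in Drop-seq macrophages (0.449%). The corresponding counts of lower genes were 219 (1.66%), 60 (0.471%) and 49 (0.423%). Of 12334 genes measured in both nuclear libraries, 128 were higher in macrophages of both, 9 were lower in both and 0 went opposite ways. The shared higher genes were 26.7% of the DroNc-seq list and 58.4% of the sNucDrop-seq list. With the DroNc-seq macrophage sum thinned to the sNucDrop-seq total, 439 genes were higher and 155 lower, with the sum of the other labels left as it was. The split of higher against lower depended on the scaling: with TMM factors it was 464 against 412 in DroNc-seq, 165 against 181 in sNucDrop-seq and 37 against 158 in Drop-seq. Without the barcodes rich in endothelial UMIs described further on, 143 genes were higher in sNucDrop-seq macrophages. Fewer barcodes were summed there, so fewer genes could reach 5 macrophage UMIs, and the part of this loss of depth was not tested.

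Ptprc, which encodes the pan-leukocyte phosphatase CD45, had 142 UMIs in DroNc-seq macrophages, 24 in sNucDrop-seq macrophages and 8 in Drop-seq macrophages. Its level was 1503 CPM in macrophages against 16.5 CPM in other labels of DroNc-seq, a log2 ratio of 6.51 (interval 6.13 to 6.90). In sNucDrop-seq it was 383 CPM against 6.57 CPM (5.86, interval 5.03 to 6.69), and in Drop-seq 216 CPM against 1.76 CPM (6.94, interval 5.45 to 8.35). Ptprc was thus far above the other labels in nuclei and whole cells alike. It was detected in 88.9% of DroNc-seq macrophages (exact interval 77.4 to 95.8%), 27.9% of sNucDrop-seq macrophages (15.3 to 43.7%) and 40% of Drop-seq macrophages (19.1 to 63.9%). In proximal tubule barcodes, which should lack it and had median depths of 1544, 1179 and 1628.5 UMIs, the shares were 2.37%, 0.659% and 0.298%, in that order of libraries. Thinned to 500 UMIs each, 66.7% of DroNc-seq, 9.30% of sNucDrop-seq and 15% of Drop-seq macrophages still showed Ptprc, against 1%, 0.2% and 0% of thinned proximal tubule barcodes.

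Adgre1, the F4/80 gene, had 86 UMIs in DroNc-seq macrophages (910.4 CPM, against 9.36 CPM in other labels) and 18 UMIs in sNucDrop-seq macrophages (287 CPM, against 9.63 CPM). The log2 ratios were 6.60 (interval 6.10 to 7.12) and 4.90 (4.02 to 5.72). Drop-seq macrophages had 0 Adgre1 UMIs (0% of 20 barcodes, interval 0 to 16.8%) while the other labels of that library held 19. The 10x macrophages also had 0, so among macrophages Adgre1 was seen in DroNc-seq and sNucDrop-seq nuclei only. Adgre1 was detected in 44.4% of DroNc-seq and 30.2% of sNucDrop-seq macrophages, against 2.18% and 1.76% of proximal tubule nuclei.

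Myo1f, a class I myosin of leukocytes, had 98 UMIs in DroNc-seq macrophages (1037 CPM, against 9.01 CPM), 34 in sNucDrop-seq macrophages (542 CPM, against 5.04 CPM) and 4 in Drop-seq macrophages. Its log2 ratio was 6.85 (interval 6.35 to 7.36) in DroNc-seq and 6.75 (5.95 to 7.58) in sNucDrop-seq, so both kinds of nuclei gave nearly the same contrast. Ctss encodes cathepsin S, the protease that trims the invariant chain, and like Ptprc it was called in all 3 libraries. It reached 498 CPM in DroNc-seq macrophages against 6.93 CPM in other labels, 255 CPM against 2.41 CPM in sNucDrop-seq and 297 CPM against 7.17 CPM in Drop-seq. The log2 ratios were 6.17, 6.73 and 5.37, with overlapping intervals.

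Dock2, an activator of the GTPase Rac in leukocyte migration, stood at 963 CPM in DroNc-seq macrophages against 9.19 CPM in other labels and at 335 CPM against 5.04 CPM in sNucDrop-seq. Fyb, an adaptor of integrin signalling, stood at 3017 CPM against 29.8 CPM in DroNc-seq and at 973 CPM against 27.1 CPM in sNucDrop-seq. In Drop-seq cells, however, Fyb stood at 216 CPM in macrophages and 170 CPM in other labels, a log2 ratio of 0.34 (interval -0.88 to 1.32), and macrophages ranked 3 of 13 labels. With TMM factors that ratio was -0.10. Fyb therefore marked macrophages in nuclei but not in these whole cells. Ikzf1 and Runx1, transcription factors of blood cells, had log2 ratios of 6.80 and 6.49 in DroNc-seq and 5.72 and 5.19 in sNucDrop-seq. Prkcb, a protein kinase C of leukocytes, had 6.32 and 4.88, and Cd300a, an inhibitory receptor of myeloid cells, 7.21 and 5.42.

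**Figure D1:**
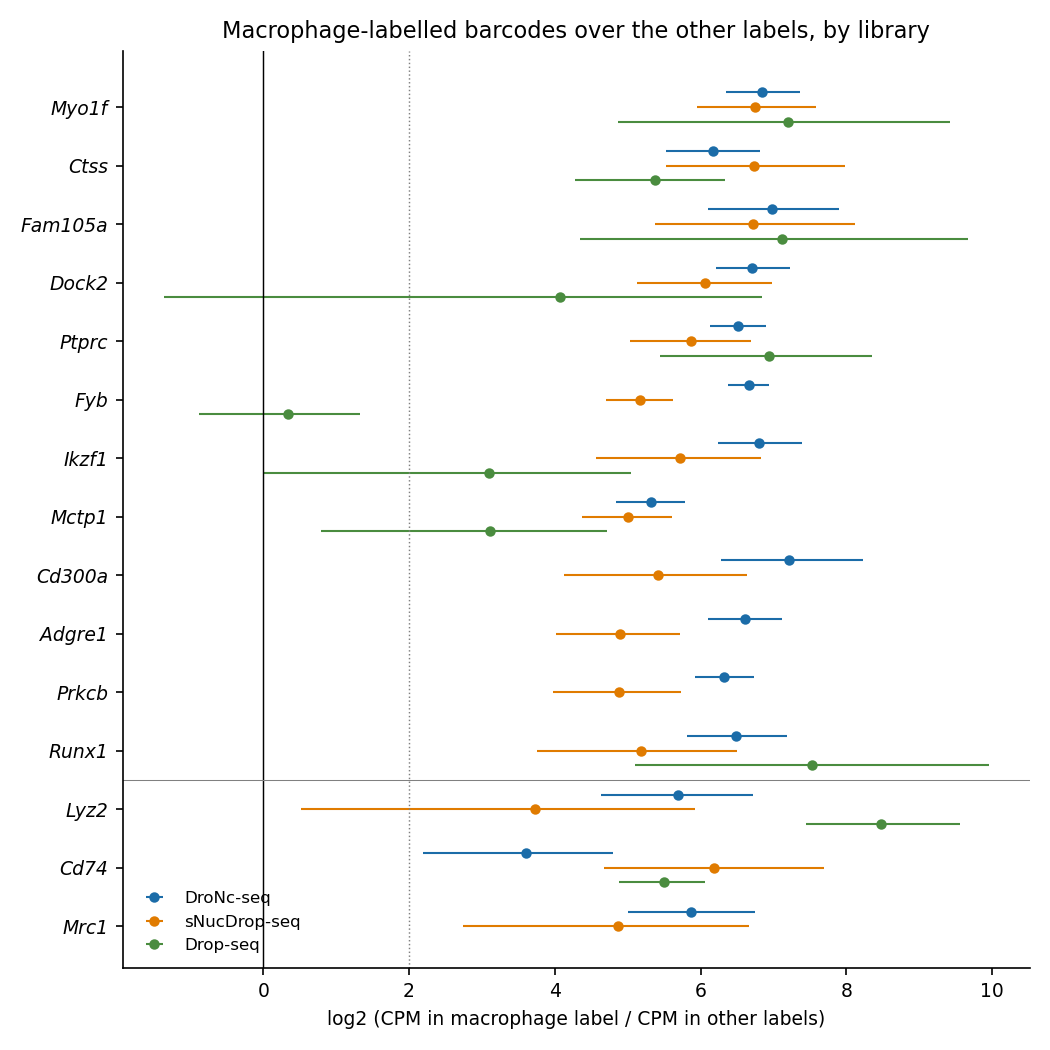
The log2 ratio of CPM in macrophages over CPM in the other labels is plotted for the 12 leading genes and, below the line, the 3 markers, with exact 95% counting intervals and 1 colour per library. The dotted line marks the 4-fold rule at a log2 ratio of 2, and the points in both nuclear libraries lie right of it, while Fyb in Drop-seq cells lies left at 0.34.

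The leukocyte signalling and cytoskeleton list of 22 genes was called almost throughout in nuclei. All 18 measured members were higher in DroNc-seq macrophages and 12 of 13 in sNucDrop-seq macrophages, against 1 of 9 in Drop-seq macrophages. The summed level was 18662 CPM in DroNc-seq macrophages against 680.3 CPM in other labels (27.4-fold), 6619 CPM against 599 CPM in sNucDrop-seq (11.1-fold) and 1349 CPM against 346 CPM in Drop-seq. The median log2 ratio over the 6 members deep enough to give one was 4.05 in DroNc-seq, where the median of all 3775 such genes was -0.19. In 10x nuclei the list held 18 UMIs in the 3 macrophages, 5532 CPM against 658 CPM.

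Within this list Arhgap15, a Rac-inactivating protein of leukocytes, stood at 2826 CPM in DroNc-seq macrophages against 55.3 CPM in other labels and at 1085 CPM against 88.0 CPM in sNucDrop-seq. Inpp5d, the phosphatase SHIP1 of blood cells, had log2 ratios of 5.19 and 4.04 in the same order, and Lyn, a Src-family kinase, had 3.97 and 2.73. Elmo1, a partner of DOCK proteins in engulfment, had 4.12 and 3.20. This kinase, this phosphatase and these Rac and engulfment regulators were high together in the nuclei. The labels closest to macrophages were EC, which carries endothelial genes, and MC, an abbreviation the annotation does not spell out. MC stood at 1689 CPM and EC at 1383 CPM in DroNc-seq, and at 1376 and 1134 CPM in sNucDrop-seq.

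**Figure D2:**
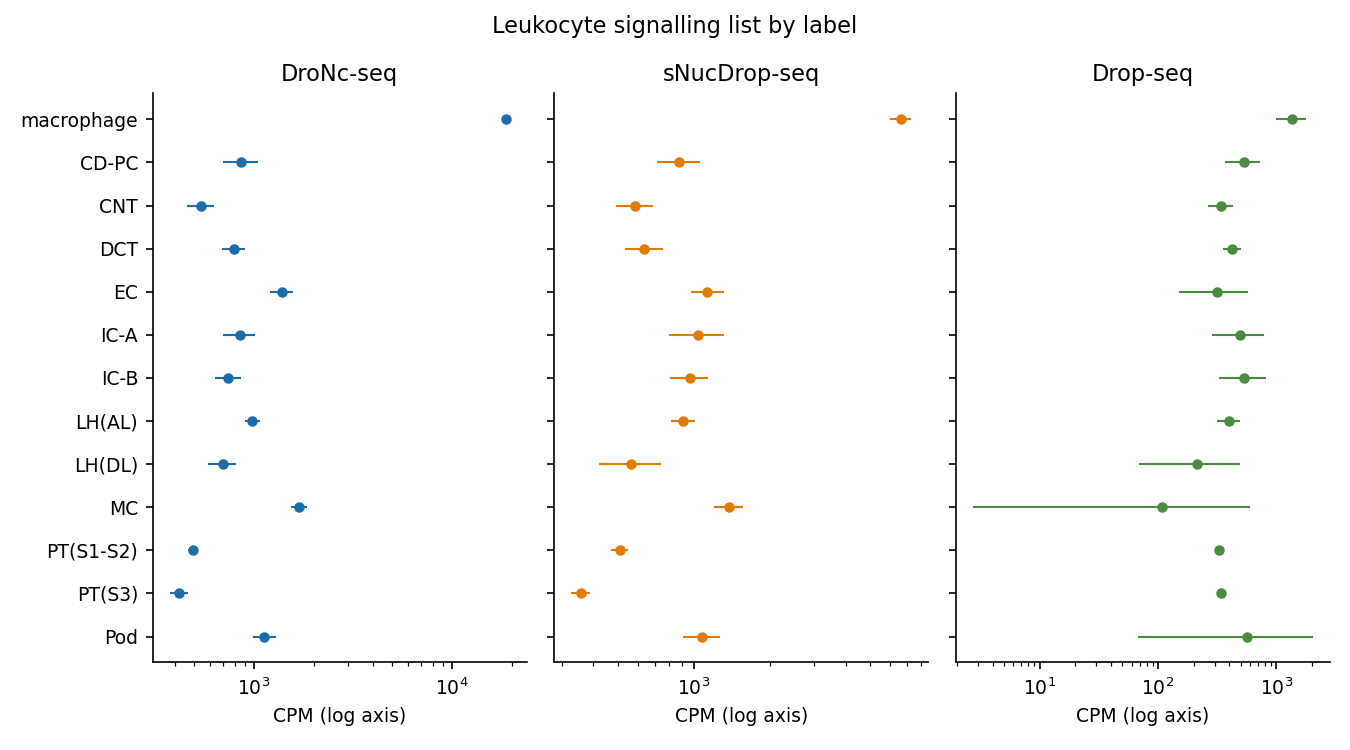
The summed CPM of the leukocyte signalling list is shown on a log axis for each label, with exact 95% counting intervals, in 1 panel per library. Macrophages stand at 18662 CPM in DroNc-seq and 6619 CPM in sNucDrop-seq, above MC at 1689 and 1376 CPM.

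Antigen presentation was high in macrophages of every library with enough UMIs to measure it. The MHC class II list of 14 genes was called for 7 of 9 measured members in DroNc-seq, 4 of 4 in sNucDrop-seq and 4 of 8 in Drop-seq. Its summed level was 1387 CPM in DroNc-seq macrophages against 65.3 CPM in other labels, 973 CPM against 33.7 CPM in sNucDrop-seq and 3938 CPM against 112 CPM in Drop-seq. The summed log2 ratios of 4.41 (interval 4.11 to 4.70), 4.85 (4.40 to 5.29) and 5.13 (4.87 to 5.39) lay within 1 unit of each other, closer than for the leukocyte list.

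H2-Aa and H2-Ab1 encode the chains of the class II molecule I-A, and H2-Eb1 a chain of I-E. H2-Ab1 had 18 UMIs in DroNc-seq macrophages (191 CPM, against 14.2 CPM in other labels), 15 in sNucDrop-seq macrophages (239 CPM, against 4.38 CPM) and 55 in Drop-seq macrophages (1483 CPM, against 45.8 CPM). H2-Aa had log2 ratios of 4.90, 4.38 and 5.89 in DroNc-seq, sNucDrop-seq and Drop-seq, and H2-Eb1 had 4.49, 4.42 and 5.86. Ciita, the transactivator that switches these genes on, had 20 UMIs in DroNc-seq and 9 in sNucDrop-seq macrophages, with log2 ratios of 4.21 and 4.50, and 0 UMIs in Drop-seq macrophages. Cd86, a costimulatory ligand for T cells, had 23 UMIs in DroNc-seq macrophages and 14 in all other labels, a log2 ratio of 6.65. Both the class II chains and their nuclear regulator thus separated macrophages from the other labels.

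The macrophage core list of 20 genes mixed genes hardly detected outside the label with others that the kidney uses elsewhere. It was called for 10 of 12 measured members in DroNc-seq, 2 of 7 in sNucDrop-seq and 3 of 8 in Drop-seq. The sum was 3271 CPM in DroNc-seq macrophages against 473 CPM in other labels, 1228 CPM against 524 CPM in sNucDrop-seq and 3021 CPM against 129 CPM in Drop-seq. In sNucDrop-seq the Pod label, podocytes, stood above macrophages at 1823 CPM. Mertk, a receptor for dying cells, stood at 148 CPM in DroNc-seq macrophages against 372 CPM in other labels (log2 ratio -1.33) and at 159 CPM against 433 CPM in sNucDrop-seq (-1.44). Its level peaked in podocytes at 1549 and 1530 CPM.

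Without Mertk, a choice made after its values were seen, the list stood at 3123 CPM in DroNc-seq macrophages against 101 CPM in other labels (31.1-fold), at 1069 CPM against 91.3 CPM in sNucDrop-seq (11.7-fold) and at 3021 CPM against 68.8 CPM in Drop-seq (43.9-fold). At least 1 UMI of these 19 genes was found in 44 of 54 DroNc-seq macrophages, 31 of 43 sNucDrop-seq macrophages and 12 of 20 Drop-seq macrophages. In 10x nuclei they gave 4 UMIs in the 3 macrophages, with a log2 ratio of 0.65 (interval -1.23 to 2.00).

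Csf1r, the receptor for the macrophage growth factor, had 24 UMIs in DroNc-seq macrophages (254 CPM, against 21.8 CPM in other labels) and 4 in sNucDrop-seq macrophages (63.8 CPM, against 19.7 CPM). Its log2 ratio of 3.54 was called in DroNc-seq, whereas 1.69 in sNucDrop-seq was not, and there the LH(DL) label stood higher at 88.9 CPM. Spi1, the PU.1 gene, had 21 UMIs in DroNc-seq macrophages against 13 in all other labels (log2 ratio 6.62), 2 in sNucDrop-seq macrophages and 3 in Drop-seq macrophages. Cx3cr1, the fractalkine receptor of resident macrophages, was called in DroNc-seq alone, at 159 CPM against 15.3 CPM. The C1q genes, which encode the first component of complement and are typical of tissue macrophages, were sparse: C1qb had 6, 5 and 6 UMIs and C1qc 6, 0 and 6 UMIs in DroNc-seq, sNucDrop-seq and Drop-seq macrophages. These C1q genes were singled out after their values were seen, and no fold is drawn from them. Their list with complement receptors and regulators was called for 2 of 4 measured members in DroNc-seq, 0 of 4 in sNucDrop-seq and 0 of 2 in Drop-seq. Its sum was nonetheless above the other labels in each. The summed log2 ratios were 2.21 (interval 1.84 to 2.56), 1.89 (1.31 to 2.42) and 4.87 (4.04 to 5.62), on 72, 30 and 17 macrophage UMIs.

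Genes of perivascular scavenging macrophages were rarely high. The list was called for 2 of 7 measured members in DroNc-seq (Mrc1 and the scavenger receptor gene Stab1), 0 of 6 in sNucDrop-seq and 0 of 4 in Drop-seq. Its summed level was 402 CPM in DroNc-seq macrophages against 183 CPM in other labels and 431 CPM against 287 CPM in sNucDrop-seq. Folr2, a folate receptor used to mark such cells, had 0 UMIs in DroNc-seq and 1 in sNucDrop-seq macrophages, beside 91 and 66 UMIs in the other labels.

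Ccr2 made up 53 of the 72 monocyte list UMIs in DroNc-seq macrophages, but 4 of 18 in sNucDrop-seq and 3 of 13 in Drop-seq macrophages. Ccr2 encodes the receptor that brings monocytes out of the marrow and stood at 561 CPM in DroNc-seq macrophages against 3.81 CPM in other labels (log2 ratio 7.20, interval 6.46 to 7.99). In sNucDrop-seq and Drop-seq it had too few UMIs to be measured. The list of 14 monocyte genes was called for 1 of 5 measured members in DroNc-seq, for 1 of 5 in sNucDrop-seq, which was S100a6, and for 0 of 4 in Drop-seq. Plac8, a gene of circulating monocytes, had log2 ratios of 2.76, 2.82 and 2.51 on 4, 3 and 3 macrophage UMIs and passed no call, and Ly6c2, which marks inflammatory monocytes of the mouse, had 1, 3 and 3 UMIs.

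The list of chemokine receptors and chemokines was called for 3 of 5 measured members in DroNc-seq, Ccr2 and Cx3cr1 among them, and for 0 of 3 in sNucDrop-seq and 0 of 3 in Drop-seq. In DroNc-seq 18 macrophages had a Ccr2 UMI and 24 an Adgre1 UMI, and 6 had both. A UMI of H2-Aa, H2-Ab1, H2-Eb1 or Cd74 was found in 15 of the 18 with Ccr2 and in 12 of the 24 with Adgre1. Those 4 class II genes were found in 26 of the 54 macrophages, and the whole MHC class II list in 35. At the depth of these barcodes a missing UMI does not show a missing transcript.

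Dendritic cell, neutrophil and mast cell genes were looked at because the label could hold other myeloid cells. The dendritic list stood at 233 CPM in DroNc-seq macrophages against 84.4 CPM in other labels and at 144 CPM against 60.9 CPM in sNucDrop-seq, with 2 of 4 and 1 of 4 measured members called. Clec9a, a receptor of cross-presenting dendritic cells, was called in both on 5 macrophage UMIs each (log2 ratios 3.50 and 4.60), and Flt3, the dendritic growth factor receptor, in DroNc-seq on 7. The neutrophil and mast cell list had 8 UMIs in DroNc-seq macrophages, 0 in sNucDrop-seq and 1 in Drop-seq, with S100a8 and S100a9, its defining genes, at 0.

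Lineage transcription factors were less sharply divided between macrophages and other labels. The list of 18 was called for 5 of 14 measured members in DroNc-seq, 3 of 12 in sNucDrop-seq and 0 of 13 in Drop-seq, with median log2 ratios of 1.44 over 6 deep members in DroNc-seq and 0.84 over 5 in sNucDrop-seq, where all 2698 such genes had -0.12. Mef2c, a factor shared by myeloid and endothelial cells, had log2 ratios of 3.37 and 3.50 over the other labels, yet 0.06 and 0.43 over EC alone. Zeb2, a factor that maintains macrophage identity, stood at 2445 CPM in DroNc-seq macrophages against 502 CPM in other labels, while MC stood at 3022 CPM. Maf, another macrophage factor, had log2 ratios of -0.12 and -0.23. Of the CSF1 receptor axis, Csf2ra, a subunit of the GM-CSF receptor, was called in both nuclear libraries (3.98 and 3.96) among 2 of 7 and 1 of 7 measured members, and Dab2, an adaptor of clathrin-coated pits, had -0.74 and -0.47.

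The phagocytic lists differed from each other: Fc receptors and receptors for dying cells were called in part in DroNc-seq alone, and lysosomal genes in part in each of the 3 libraries. Fc receptors, which bind antibody-coated targets, were called for 3 of 6 measured members in DroNc-seq, 0 of 3 in sNucDrop-seq and 0 of 2 in Drop-seq. Fcgr4, an activating Fc receptor of the mouse, had 21 UMIs in DroNc-seq macrophages against 5 in all other labels, or 222 CPM against 0.867 CPM (log2 interval 6.56 to 9.77). Receptors for dying cells stood at 910.4 CPM in DroNc-seq macrophages against 902 CPM in other labels and at 925 CPM against 965 CPM in sNucDrop-seq, with 3 of 12 and 0 of 11 measured members called. The pattern recognition list was called for 1 of 6 members in DroNc-seq (the C-type lectin gene Clec4a2), 0 of 5 in sNucDrop-seq and 0 of 6 in Drop-seq.

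The lysosome list was called for 6 of 17 measured members in DroNc-seq, 2 of 16 in sNucDrop-seq and 3 of 17 in Drop-seq, with median log2 ratios of 0.31, 0.29 and -0.24 over the 8, 7 and 8 members deep enough. Ctsc, the protease that activates granule enzymes, was called in all 3 libraries, at 254 CPM in DroNc-seq macrophages against 10.7 CPM in other labels, 191 CPM in sNucDrop-seq macrophages (log2 ratio 3.77) and 216 CPM against 4.10 CPM in Drop-seq. Psap, the precursor of the saposins, was called in DroNc-seq (2.19) and had 0.94 in sNucDrop-seq and -0.07 in Drop-seq. Lgmn, the lysosomal protease legumain, had 1.35 in DroNc-seq and -0.13 in sNucDrop-seq. Iron and haem genes were called for 1 of 6, 0 of 5 and 0 of 6 measured members, the called gene being Slc11a1, the metal transporter of phagosomes, with a log2 ratio of 6.42 in DroNc-seq.

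Inflammatory cytokine genes were hardly detected apart from Il1b, which encodes interleukin-1 beta. Il1b had 24 UMIs in DroNc-seq macrophages against 6 in all other labels, 254 CPM against 1.04 CPM (log2 ratio 7.93, interval 6.60 to 9.51), and 9 UMIs against 8 in Drop-seq. The activation list held 25 UMIs in DroNc-seq macrophages, 6 in sNucDrop-seq and 12 in Drop-seq, so nearly all of its DroNc-seq signal was Il1b, which was found in 10 barcodes. Of those 10, 7 also had Adgre1 and 1 had Ccr2.

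Among growth and repair factors, a ligand and a receptor of the TGF-beta pathway were called in both nuclear libraries. Tgfb1, the ligand, stood at 265 CPM in DroNc-seq macrophages against 11.8 CPM in other labels and at 159 CPM against 8.54 CPM in sNucDrop-seq, with log2 ratios of 4.49 and 4.22. Its receptor gene Tgfbr1 stood at 1122 CPM against 167 CPM in DroNc-seq, 654 CPM against 152 CPM in sNucDrop-seq and 243 CPM against 20.9 CPM in Drop-seq, called in all 3 libraries. Over EC and MC alone Tgfbr1 was 2.42 and 1.99 higher on the log2 scale in DroNc-seq and 2.08 and 1.23 higher in sNucDrop-seq. Vegfa, the angiogenic ligand that tubules make, was lower in DroNc-seq macrophages (52.9 CPM, against 273 CPM). The list was called higher for 3 and lower for 1 of 12 measured members in DroNc-seq, and higher for 2 of 12 in sNucDrop-seq and 2 of 11 in Drop-seq.

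**Figure D3:**
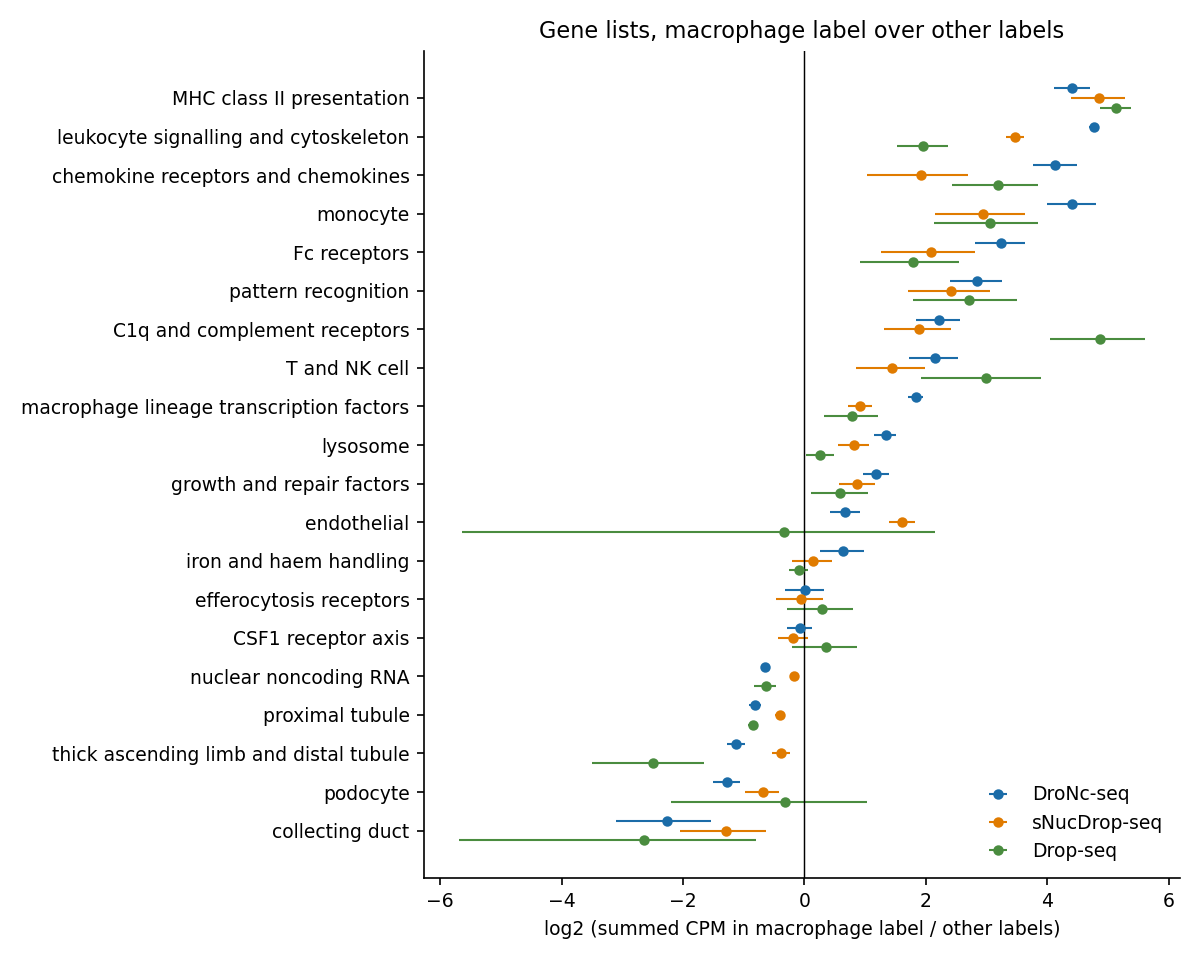
Summed log2 ratios of gene lists in macrophages over other labels are plotted with exact 95% counting intervals, 1 colour per library. MHC class II lies between 4.41 and 5.13 in all 3 libraries, the leukocyte list is at 1.96 in Drop-seq cells, and the proximal tubule list lies left of 0.

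Immediate early genes, which tissue dissociation can induce within minutes, differed by platform. The list was called for 7 of 16 measured members in Drop-seq macrophages and for 0 of 13 in DroNc-seq and 0 of 11 in sNucDrop-seq macrophages. Its summed level was 3021 CPM in Drop-seq macrophages against 1055 CPM in other labels, 550 CPM against 299 CPM in DroNc-seq and 638 CPM against 472 CPM in sNucDrop-seq. Atf3, a stress-induced factor, had a log2 ratio of 5.41 on 12 macrophage UMIs in Drop-seq, Btg2, an antiproliferative early gene, 3.69, and Egr1, a zinc finger early gene, 2.73. The digestion was given to the Drop-seq cells alone, and its part was not tested.

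Cell cycle genes were higher over the sum of macrophages, but in few barcodes. Mki67, a marker of dividing cells, stood at 254 CPM in DroNc-seq macrophages against 16.5 CPM in other labels and at 175 CPM in sNucDrop-seq macrophages (log2 ratio 3.65), and the list was called for 4 of 6 and 2 of 6 measured members. In DroNc-seq 4 barcodes held 58 of the 64 cell cycle UMIs and carried 6, 2, 6 and 11 macrophage core UMIs. Without them the list stood at 73.1 CPM in the other 50 DroNc-seq macrophages, a log2 ratio of 0.26. The 4 barcodes were picked on UMIs of this same list and the other labels were left whole, so that fall was set in advance. In sNucDrop-seq 1 barcode with 0 core UMIs held 12 of 26, and in Drop-seq 1 barcode held 8 of 15.

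Some lymphocyte genes lay in single barcodes and others did not. The highest ratios of the Drop-seq macrophages were those of the immunoglobulin genes Igha (log2 ratio 13.41), Igkc (12.49) and Jchain (11.93), products of plasma cells. All 349 UMIs of these genes came from 1 of the 20 barcodes, which had 1170 UMIs and 0 macrophage core UMIs. Without it the B and plasma cell list had 1 UMI, or 27.8 CPM, beside 9521 CPM with it. Below these genes the Drop-seq ranking went on with Lyz2 (8.47, interval 7.45 to 9.56), Cd52, a small leukocyte surface antigen (7.63), and Ptprc. In DroNc-seq 5 barcodes with at least 5 UMIs of 6 T cell genes each held 47 of the 57 T and NK cell list UMIs and only 5 core UMIs, and the list stood at 118 CPM (log2 ratio -0.21) in the other 49, beside 603 CPM in all 54. The leukocyte list had a log2 ratio of 4.86 in those 49. The 5 barcodes were picked on T cell UMIs, so the fall of the T and NK cell list was set in advance. In sNucDrop-seq 28 T and NK cell list UMIs lay in 12 of 43 macrophages, 19 of them outside the top barcode, with a summed log2 ratio of 1.45 (interval 0.85 to 1.99). The B and plasma cell list was spread too, with 46 UMIs in 17 DroNc-seq macrophages and 39 of them outside the top barcode. Bank1, a B cell adaptor, was called in both nuclear libraries (5.69 and 4.07).

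Genes of endothelial and stromal cells also stood above the other labels in sNucDrop-seq. The endothelial list stood at 2887 CPM in sNucDrop-seq macrophages against 946 CPM in other labels, with 3 of 12 members called, and at 1471 CPM against 921 CPM in DroNc-seq, with 1 of 12 called, while the EC label itself stood at 12156 and 13398 CPM. Kdr, a VEGF receptor of endothelium, had a log2 ratio of 2.63 in sNucDrop-seq, and Pecam1, a junction protein that leukocytes share, 2.41 in DroNc-seq. A group of 12 sNucDrop-seq barcodes with at least 5 endothelial UMIs each held 160 of the 181, and 4 DroNc-seq barcodes held 90 of 139. Without those 12 barcodes the endothelial list stood at 544 CPM in sNucDrop-seq macrophages (log2 ratio -0.80) and the leukocyte list at 7438 CPM (3.63, against 3.47 in all 43). The leukocyte signal was therefore as large in the 31 barcodes with little endothelial RNA. The fall of the endothelial list was set in advance, since the 12 barcodes were picked on it and the other labels were left whole. The fibroblast, pericyte and mesangial list stood at 399 CPM in sNucDrop-seq macrophages against 200 CPM in other labels (log2 ratio 1.00, interval 0.36 to 1.57), with 2 of 8 measured members called. These were Col3a1, a fibrillar collagen (3.86), and Itga8, an integrin of mesangial cells (3.02), and the 25 UMIs lay in 11 barcodes. In DroNc-seq the list stood at 275 CPM against 282 CPM with 0 of 11 called, and Drop-seq macrophages had 0 UMIs. The part of stromal RNA in the other results was not tested.

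Proximal tubule RNA was present in macrophages, below the proximal tubule labels and within the range of the other labels in DroNc-seq, sNucDrop-seq and Drop-seq. The proximal tubule list stood at 30234 CPM in Drop-seq macrophages against 54490 CPM in other labels, 17879 CPM against 23597 CPM in sNucDrop-seq and 8754 CPM against 15401 CPM in DroNc-seq, with 0 of 20 measured members higher in any of them and 1 lower in DroNc-seq. Kap, an androgen-regulated proximal tubule gene, was detected in 95.3% of sNucDrop-seq macrophages against 95.9% of proximal tubule nuclei, in 100% of Drop-seq macrophages against 98.7%, and in 33.3% of DroNc-seq macrophages against 38.6%. Against single labels, sNucDrop-seq macrophages stood above MC (13452 CPM) and near EC (17776 CPM) and Pod (18920.3 CPM), and DroNc-seq macrophages between MC (6266 CPM) and EC (10521 CPM). In the 3 macrophages of 10x nuclei the list was higher than in other labels, at 19053 CPM against 9627 CPM, with 59 of its 62 UMIs in 1 nucleus. The loop and distal tubule list was lower for 2 of 12 members in DroNc-seq and 3 of 12 in Drop-seq, and the podocyte and red blood cell lists gave 0 calls in any library.

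Among the 6 lowest genes over both nuclear libraries were Slc26a4, Slc12a3 and Aadat. Slc26a4, the chloride and bicarbonate exchanger pendrin of intercalated cells, had 2 UMIs in DroNc-seq macrophages (21.2 CPM, against 348 CPM) and 2 in sNucDrop-seq macrophages (31.9 CPM, against 297 CPM). Slc12a3, the thiazide-sensitive cotransporter of the distal convoluted tubule, had 2 UMIs in DroNc-seq macrophages (21.2 CPM, against 1630.3 CPM; log2 ratio -6.27) but 35 in sNucDrop-seq macrophages (558 CPM, against 1603 CPM; -1.52), where it did not pass the 4-fold rule. Aadat, an aminotransferase of the proximal tubule, had -2.84 and -3.50. Depletion of Slc12a3 was thus much deeper in the DroNc-seq than in the sNucDrop-seq macrophage sum. The loop and distal tubule list was uneven over sNucDrop-seq macrophages, with 60 of its 365 UMIs in 1 barcode, and the barcodes behind the 35 Slc12a3 UMIs were not counted.

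**Figure D4:**
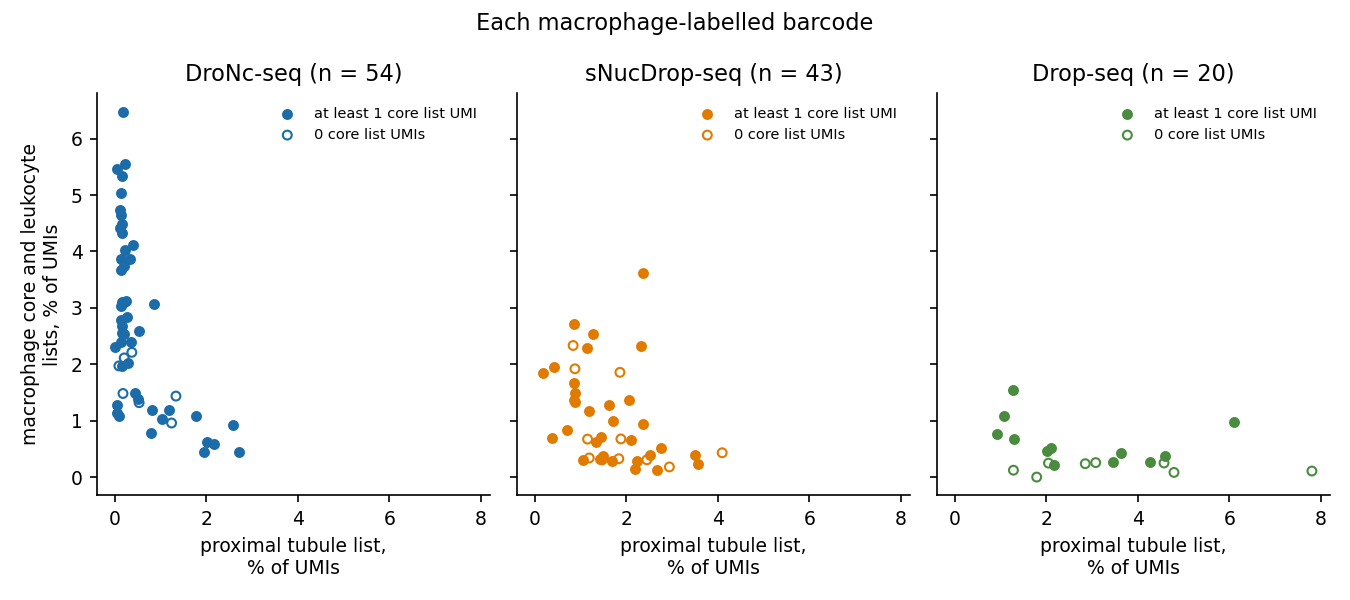
Each point is 1 macrophage barcode, with the proximal tubule list on the x axis and the macrophage core and leukocyte lists together on the y axis, both as percent of its UMIs, in 1 panel per library (54, 43 and 20 barcodes). DroNc-seq points stand high and left (medians 2.47% and 0.198%), Drop-seq points low and right (0.260% and 2.51%), and open points have 0 core UMIs.

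Barcode by barcode, DroNc-seq macrophages had the largest share of core and leukocyte UMIs and the smallest of proximal tubule UMIs. Macrophage core and leukocyte genes took a median of 2.47% of a macrophage's UMIs in DroNc-seq (range 0.439 to 6.48%), 0.688% in sNucDrop-seq (0.134 to 3.62%) and 0.260% in Drop-seq (0 to 1.55%). Proximal tubule genes took a median of 0.198%, 1.49% and 2.51%, and more than 1% of UMIs in 10 of 54, 32 of 43 and 19 of 20 macrophages. On the proximal tubule list the other labels differed the same way, with log2 ratios to sNucDrop-seq of -0.62 in DroNc-seq and 1.21 in Drop-seq. In the same order of libraries, 5, 1 and 0 macrophages had at least 5 T cell UMIs, and 4, 12 and 0 at least 5 endothelial UMIs. No core UMI was found in 7 DroNc-seq, 11 sNucDrop-seq and 8 Drop-seq macrophages, and at least 5 in 27, 4 and 9. Some macrophages of each of these libraries thus showed none of the 20 core genes at their depth. The other labels held core UMIs too, among them 967 over 884 PT(S3) and 236 over 55 Pod barcodes in sNucDrop-seq. Of these Pod UMIs 198 were Mertk. Without Mertk the other labels held 417 core UMIs over 2968 barcodes in sNucDrop-seq and 580 over 2715 in DroNc-seq. A UMI of those 19 genes was found in 31 of 43 sNucDrop-seq and 44 of 54 DroNc-seq macrophages, so it was commoner per barcode inside the label. A core UMI with Mertk included tells less, and the share of other barcodes with a core UMI was not counted. Ptprc was found in 88.9% of DroNc-seq macrophages against 2.37% of proximal tubule barcodes. The shares were 27.9% against 0.659% in sNucDrop-seq and 40% against 0.298% in Drop-seq.

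Set against EC and MC, the labels nearest to them on the leukocyte list in nuclei, macrophages were still high for leukocyte and class II genes. On the core list with Mertk included Pod was nearer, at 1934 CPM in DroNc-seq and 1823 CPM in sNucDrop-seq. Mertk alone gave 302 of the 377 Pod core UMIs in DroNc-seq and 198 of the 236 in sNucDrop-seq. Over EC, 166 of 3212 measured genes were higher in DroNc-seq macrophages (5.17%) and 217 lower (6.76%), and 24 of 2663 (0.901%) and 90 (3.38%) in sNucDrop-seq. Over MC the counts were 182 of 4016 higher (4.53%) and 359 lower (8.94%) in DroNc-seq, and 26 of 2728 higher (0.953%) and 178 lower (6.52%) in sNucDrop-seq. The leukocyte list had summed log2 ratios of 3.75 over EC and 3.47 over MC in DroNc-seq, and of 2.54 and 2.27 in sNucDrop-seq. MHC class II had 2.94 and 2.98 in DroNc-seq and 3.92 and 3.97 in sNucDrop-seq. The core list was only 0.54 above MC in sNucDrop-seq, and the complement list was 1.55 and 1.88 lower than in MC on the log2 scale in DroNc-seq and sNucDrop-seq.

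Macrophages of both nuclear platforms were then compared directly. In DroNc-seq macrophages 71 of 1887 measured genes exceeded sNucDrop-seq macrophages 4-fold or more (3.76%) and 33 lower (1.75%), and 7 and 9 of these also differed 4-fold in the other labels. The leukocyte list was 1.50 higher on the log2 scale in DroNc-seq than in sNucDrop-seq macrophages (interval 1.34 to 1.65), where the other labels differed by 0.18. The core list was 1.41 higher in macrophages and -0.15 in other labels, and chemokine receptors 2.03 higher and -0.19. MHC class II differed by 0.51 in macrophages and 0.95 in other labels, and endothelial genes by -0.97 and -0.04. The leukocyte, core and chemokine lists thus differed between platforms more in macrophages than in the other labels, whereas MHC class II did not. These are values of 2 libraries, and the differences were not tested.

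Cd72, a surface protein of B cells and macrophages that binds CD100, led these genes, with 54 UMIs in DroNc-seq macrophages (572 CPM, against 1.04 CPM in other labels) and 3 UMIs in sNucDrop-seq macrophages, 3.58 higher on the log2 scale (interval 1.95 to 5.90). It was found in 18 DroNc-seq macrophages, of which 14 had Adgre1, 4 had Ccr2 and 0 had 1 of the 6 T cell genes. Of all 54, 24 had Adgre1, 18 had Ccr2 and 10 had a T cell gene. Unrelated detection would give 8, 6 and 3.33 barcodes with Cd72 and each of these. Plek, the protein kinase C substrate pleckstrin, had 29 UMIs in DroNc-seq macrophages and 0 in sNucDrop-seq, and St18, a zinc finger factor, 46 and 0. At the low end stood the proximal tubule enzyme genes Ces1f, Cyp2j13 and Cyp4b1 with 0, 0 and 3 UMIs in DroNc-seq macrophages against 32, 34 and 71 in sNucDrop-seq macrophages, and the other labels differed the same way (log2 ratios -3.97, -7.48 and -5.73). Xist, the noncoding RNA of the inactive X chromosome, was found in 45 of 54 DroNc-seq macrophages and in 0 sNucDrop-seq and 0 Drop-seq macrophages. Proximal tubule barcodes split the same way, with Xist in 80.1%, 0% and 0% of them, so this is a difference of whole libraries. The labels do not name the sex of the animals. Sex, animal and platform therefore cannot be told apart between DroNc-seq and sNucDrop-seq, also for the enzyme genes above, and their parts were not tested.

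**Figure D5:**
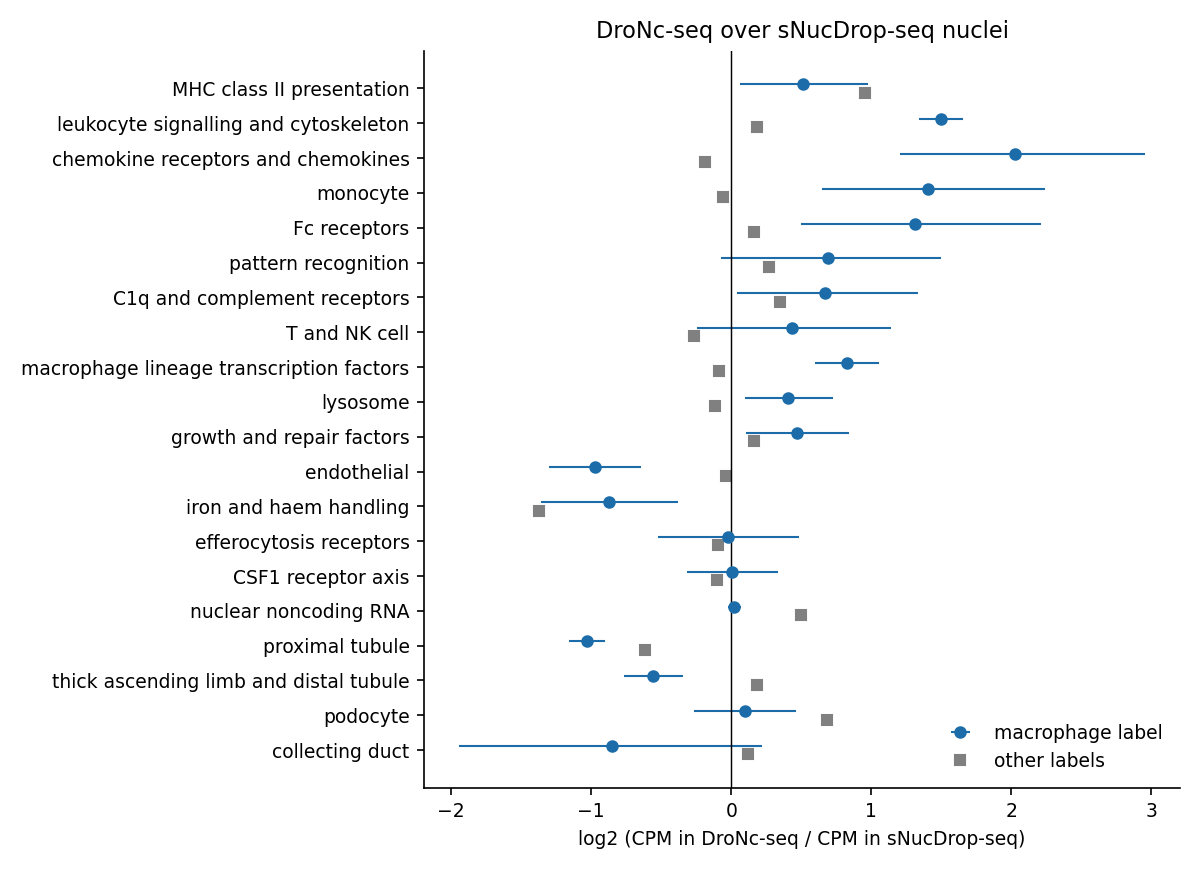
The log2 ratio of summed CPM in DroNc-seq over sNucDrop-seq is plotted per gene list, with circles and exact 95% counting intervals for macrophages and squares for the other labels. Leukocyte, monocyte and chemokine lists lie right of the squares at 1.50, 1.41 and 2.03, and endothelial genes lie left at -0.97.

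Whole-cell macrophages differed from nuclear ones mostly as the other labels did. In Drop-seq macrophages 138 of 800 measured genes exceeded sNucDrop-seq macrophages 4-fold or more (17.2%) and 305 were lower (38.1%), and 123 and 233 of these differed 4-fold in the other labels too. The core list was 1.30 higher in Drop-seq macrophages while it was -2.02 in other labels, and the leukocyte list was -2.30 (interval -2.75 to -1.87) against -0.79. MHC class II was 2.02 higher in macrophages and 1.74 in other labels. Malat1, a nuclear noncoding RNA, was lower by -3.94 in macrophages and -3.44 in other labels, and Pde4d, a long phosphodiesterase gene, by -5.12 and -3.71. Whole-cell macrophages thus gave higher levels of Lyz2 and Cd74, and lower levels of the leukocyte signalling list that marked the nuclei. Cd74 was also higher in the other labels of Drop-seq than in those of sNucDrop-seq. Mrc1 and Adgre1 went the other way, with 0 UMIs each in Drop-seq macrophages against 4 and 18 in sNucDrop-seq macrophages.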

How the data were processed

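The 5 libraries of mouse kidney (4 healthy, 1 of day 14 UUO) were deposited as tables of 19713 genes by 11395 barcodes and 21516 genes by 6147 barcodes. Their values are raw UMI counts that the authors made with zUMIs, per the deposited readme. STAR 2.5.3a and build mm10 are named in the submitters' processing notes. Macrophages are the barcodes with the macrophage label of the authors' deposited annotation, whose symbol is partly damaged in the UUO file. The members and the 30 gene lists (401 genes, 350 of them in the healthy table) were chosen with earlier results of these data known.

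Within each library the UMIs of all barcodes with a label were added up and scaled to CPM. Exact 95% intervals (conditional binomial for ratios, Clopper-Pearson for shares, Poisson for sums) take in the counting error alone. To be measured a gene needed 20 UMIs or more over both sums. It was called higher at 4-fold or more with at least 5 macrophage UMIs, and lower at 4-fold or more where the other labels' level would give at least 5. A list median used only members with at least 5 expected macrophage UMIs, in at least 3 such members. All deposited barcodes were kept and doublets were not called; leaving out barcodes above 3 times the median UMIs of their label was an alternative. The barcodes of sNucDrop-seq and Drop-seq shared 1 sequence, and macrophages shared 0. The deposited tables listed no gene found in fewer than 6 DroNc-seq or 4 10x barcodes, so a gene listed at 0 over a whole library was given no fold.

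Genes were named by rule: Lyz2, Cd74 and Mrc1; the 12 highest and 6 lowest in both nuclear libraries and the 6 highest in Drop-seq, by the interval bound nearest to 0; in each list the 4 most abundant measured members and those called in both nuclear libraries; and the 4 highest and 4 lowest between libraries. Mitochondrial, ribosomal protein and unnamed gene models were left out. C1qb, C1qc, Folr2, Plac8, Ly6c2, Flt3, Stab1, Vegfa and other list members outside the rule were named after their values were seen, and some genes that the rule names are not reported here. The contrasts were tested on simulated data with known folds before use. Alternatives covered scaling (TMM from edgeR 4.0.16 in R 4.3.3, median of ratios, totals), barcode and count minimums, folds, reference labels and thinning to 500 UMIs. Leaving out barcodes rich in immunoglobulin, endothelial, T cell or cell cycle UMIs, thinning the DroNc-seq sum, and the core list without Mertk were added after seeing the data. The scripts ran in Python 3.11.15 with pandas 2.3.3, matplotlib 3.10.9, scipy 1.17.1 and numpy 2.4.6. No per-sample column lay outside the mapped libraries.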

Additional observations from a re-analysis of the deposited data

Results flagged for a closer look

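Umod, which encodes uromodulin of the thick ascending limb, went opposite ways in the macrophage sums of different platforms. It stood at 138 CPM in DroNc-seq macrophages against 534 CPM in other labels (log2 ratio -1.96) and at 27.0 CPM against 288 CPM in Drop-seq (-3.42), but at 606 CPM against 403 CPM in sNucDrop-seq (0.59, interval 0.08 to 1.05). The loop and distal tubule list, which holds Umod and Slc12a3, was uneven over the 43 sNucDrop-seq macrophages. Of its 365 UMIs, single barcodes held 60, 48 and 44. The barcodes behind the Umod UMIs were not counted, and the difference between the libraries was not tested.

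Signal also appeared in macrophages outside the main comparisons. The leukocyte signalling list stood at 5532 CPM in the 3 healthy 10x macrophages, against 658 CPM in the other 10x labels. In UUO nuclei it stood at 7941 CPM in the 130 macrophages, against 1025 CPM in other labels, and the macrophage core list at 3183 CPM against 248 CPM. These differences have no test.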

How the results depend on the processing

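The core, leukocyte and MHC class II list sums kept their sign under every setting tried, while the uncalled Fyb ratio in Drop-seq ranged between -0.10 and 0.56. Of the values for single genes and the class II list, 685 moved by less than their counting interval and 42 by more. Counts of lower genes moved most. In sNucDrop-seq macrophages the 60 lower genes became 181 with TMM, 168 with median of ratios, 93 as a mean over barcodes, 116 without proximal tubule labels, 101 with labels weighted equally, and 312 and 16 at folds of 2 and 8, and the 223 higher genes became 148 without proximal tubule labels, 82 at a minimum of 100 UMIs, 744 and 97 at folds of 2 and 8, and 143 without endothelial-rich barcodes, where fewer barcodes were summed. In DroNc-seq the 219 lower genes became 412, 388, 383 (mean over barcodes), 356 without barcodes above 3 label medians, and 820 and 76 at folds of 2 and 8, and the 570 higher genes 236 at 100 UMIs and 1340 and 300 at folds of 2 and 8. In Drop-seq the 49 lower genes became 158, 154, 25 with totals free of mitochondrial, ribosomal protein and Malat1 UMIs, 124 without proximal tubule labels, 76 with equal labels, and 210 and 16 at folds of 2 and 8, and the 52 higher genes 179 and 26. The core list in sNucDrop-seq (log2 ratio 1.23) gave 0.86 with TMM, 1.75 as a mean over barcodes, 0.73 at 1000 UMIs and 3.55 without Mertk. In DroNc-seq (2.79) it gave 2.46, 2.49 with median of ratios, 3.10, 3.13 without barcodes above 3 medians and 4.96, and in Drop-seq (4.54) 4.10, 4.12, 5.10 without proximal tubule labels and 5.46. The leukocyte list in sNucDrop-seq (3.47) gave 3.10, 3.14, 3.73, 3.16 at 1000 UMIs, 2.89 without proximal tubule labels, 2.98 with equal labels and 3.63 without endothelial-rich barcodes. In DroNc-seq (4.78) it gave 4.45, 4.48, 4.69 with the reduced totals, 4.87, 5.05, 4.28, 4.41 and 4.92, and in Drop-seq (1.96) 1.52 with TMM. The macrophage share outside proximal tubule labels was 4.64% in DroNc-seq, 3.61% in sNucDrop-seq and 3.93% in Drop-seq. Between libraries the 33 genes lower in DroNc-seq than in sNucDrop-seq macrophages became 54 without barcodes above 3 medians, and the 305 lower in Drop-seq became 157 without endothelial-rich barcodes, where fewer barcodes were summed. At 500 UMIs Ptprc was detected in 66.7% of DroNc-seq, 9.30% of sNucDrop-seq and 15% of Drop-seq macrophages. The other causes were not tested. TMM shifted the median of all genes by -0.31 in DroNc-seq, -0.35 in sNucDrop-seq and -0.44 in Drop-seq. The 20 Drop-seq macrophages hold 37077 UMIs, and the 10x library allows list sums only. No paired analysis was possible because each group has 1 library.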

Other observations

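Macrophages of the obstructed kidney were described on the same lists. The perivascular and scavenging list stood at 1114 CPM in UUO macrophages, against 138 CPM in other UUO labels (log2 ratio 3.01), the lysosome list at 6015 CPM against 1549 CPM (1.96), and the MHC class II list at 477 CPM against 123 CPM (1.95). Among growth and repair factors, 393 of 498 UMIs in UUO macrophages were Spp1, which encodes osteopontin. UUO macrophages had a median of 326.5 UMIs, against 1068 in the other UUO labels. Injury, depth and annotation differ together between these and the healthy macrophages, so no comparison with the healthy 10x nuclei was made.

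Within Drop-seq, 7 of 20 macrophages had a C1q UMI. All 7 also had a UMI of H2-Aa, H2-Ab1, H2-Eb1 or Cd74, which 12 of the 20 had. In DroNc-seq, 9 of the 12 macrophages with Mrc1 had Adgre1 and 5 had Ccr2. These are counts of barcodes within single libraries.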
